A study of Homo sapiens with 14 samples.

Results

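KDM1A, KDM1B, KDM5A, KDM5B, KDM5C, RCOR1, RCOR2, RCOR3 and PHF21A, 9 genes that encode histone H3 lysine 4 (H3K4) demethylases and the scaffold and reader proteins of the CoREST complex, were followed in U2OS cells treated with compounds that act on chromatin. They were taken by symbol from 2 tables of gene-level RNA-seq values, and all 9 were among the 22919 symbols that both tables hold. U2OS is an established human osteosarcoma line grown here in RPMI medium with FBS, and poly(A) RNA was sequenced. Values are FPKM (fragments scaled by transcript length and by the mapped fragments of the library), so levels can be compared between genes per unit length. In bulk RNA, a lower level per cell and fewer cells that express a gene cannot be told apart.

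The treated groups with 2 libraries were 2-PCPA (tranylcypromine, 1 mM, 12 h), GSK343 (10 μM, 24 h) and rapamycin (5 μM, 24 h). BIX-01294 (5 μM, 12 h), BRD4770 (20 μM, 24 h), GSK-J4 (20 μM, 12 h), SAHA (1 μM, 24 h), UNC1215 (50 μM, 24 h) and VPA (20 μM, 24 h) had 1 library each. The vehicle control was DMSO (0.5% v/v, 2 libraries), for which the labels give no time, so treatment time and compound cannot be told apart in comparisons with it. Replicate 1 of each group is in 1 table of 10 libraries and replicate 2 in another of 4 libraries, and every comparison was made within a table. Nothing in the labels says whether the 2 replicates came from separate cultures, and the p-values therefore measure only the spread between these libraries, which may be technical.

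H3K4 methylation marks promoters and enhancers of active genes. KDM1A (LSD1) and KDM1B (LSD2) are flavin-dependent amine oxidases that take methyl groups off mono- and dimethylated H3K4. KDM5A, KDM5B and KDM5C are iron- and 2-oxoglutarate-dependent dioxygenases that also act on the trimethylated form. RCOR1 (CoREST) holds KDM1A together with the deacetylases HDAC1 and HDAC2 and lets it work on nucleosomes, RCOR2 and RCOR3 are its paralogs, and PHF21A (BHC80) is a subunit that binds unmethylated H3K4. Of the compounds, 2-PCPA inactivates KDM1A by reacting with its flavin, GSK343 inhibits the H3K27 methyltransferase EZH2, BIX-01294 and BRD4770 inhibit the H3K9 methyltransferase EHMT2 (G9a), GSK-J4 inhibits JmjC demethylases of the KDM6 family, SAHA and VPA inhibit histone deacetylases, UNC1215 binds the methyl-lysine reader L3MBTL3, and rapamycin inhibits mTOR.

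The RefSeq promoter windows (GRCh38.p14, 250 bases before to 50 bases after the start) of 4 genes are printed because 3 of them, KDM5B, RCOR1 and KDM5C, stood more than 2-fold above DMSO in the BIX-01294 library, while KDM1A, an enzyme that 2-PCPA targets, did not. Each is given 5′ to 3′ on the strand of its gene. Capitals mark GC boxes (GGGCGG) and CCAAT boxes (CCAAT), found on either strand, so that CCGCCC is the GC box of the opposite strand, and overlapping GC boxes were counted separately. The windows lie at chr1:202808372-202808671 (KDM5B, minus strand), chr14:102592399-102592698 (RCOR1, plus strand), chrX:53225158-53225457 (KDM5C, minus strand) and chr1:23019218-23019517 (KDM1A, plus strand).
KDM5B: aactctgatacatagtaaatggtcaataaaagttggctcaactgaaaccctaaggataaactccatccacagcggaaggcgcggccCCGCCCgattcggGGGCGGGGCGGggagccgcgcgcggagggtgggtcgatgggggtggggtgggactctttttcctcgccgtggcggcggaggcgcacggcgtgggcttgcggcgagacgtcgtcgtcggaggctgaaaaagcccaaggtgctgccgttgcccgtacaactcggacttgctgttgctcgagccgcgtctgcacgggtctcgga
RCOR1: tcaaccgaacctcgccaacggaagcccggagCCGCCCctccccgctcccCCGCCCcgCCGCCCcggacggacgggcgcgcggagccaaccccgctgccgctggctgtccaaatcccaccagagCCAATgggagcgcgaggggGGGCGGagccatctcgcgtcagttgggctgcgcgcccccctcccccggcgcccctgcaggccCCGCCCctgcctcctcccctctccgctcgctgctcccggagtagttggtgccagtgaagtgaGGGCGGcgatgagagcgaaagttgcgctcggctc
KDM5C: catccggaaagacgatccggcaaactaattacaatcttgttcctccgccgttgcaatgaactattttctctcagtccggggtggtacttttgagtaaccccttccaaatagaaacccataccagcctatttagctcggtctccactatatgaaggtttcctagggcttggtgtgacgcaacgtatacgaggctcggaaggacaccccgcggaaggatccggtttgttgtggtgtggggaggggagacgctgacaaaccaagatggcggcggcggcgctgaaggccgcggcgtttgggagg
KDM1A: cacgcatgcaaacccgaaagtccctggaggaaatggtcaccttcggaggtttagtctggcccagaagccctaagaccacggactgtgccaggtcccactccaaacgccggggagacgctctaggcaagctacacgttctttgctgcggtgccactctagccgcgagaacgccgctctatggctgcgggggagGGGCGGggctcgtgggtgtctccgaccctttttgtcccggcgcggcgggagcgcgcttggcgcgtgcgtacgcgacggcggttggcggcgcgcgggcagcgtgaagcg

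The KDM5B window held 3 GC boxes, the RCOR1 window 6 GC boxes and 1 CCAAT box, the KDM1A window 1 GC box, and the KDM5C window neither motif. GC boxes were in 9 of the 11 windows that RefSeq gives for 8 of the 9 genes (81.8%), against 45.0% of all 35116 promoter windows of the same length. PHF21A and RCOR3 have more than 1 window each. CCAAT boxes were in 2 of the 11 windows, 1 of RCOR1 and 1 of RCOR3, and in 34.6% of all. The TATA box (TATAAA, either strand) was in 0 of the 11 windows and in 11.5% of all. The G+C content was 63.7% in the KDM5B window, 74.3% in RCOR1, 54.3% in KDM5C and 66.7% in KDM1A, against a median of 58.7% over all windows. Of the 11 windows 9 were above that median, and the GC box share was not compared with windows of like G+C content. The motifs were chosen with the sequences in view, and a match describes letters in a window, not a bound site.

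Facts of the libraries that touch these genes are few. Relative depth, read from the steps of low FPKM values against DMSO of the same table, lay between 0.557 (lowest, BIX-01294) and 1.24 (highest, SAHA) among replicate 1 libraries and between 0.676 and 0.809 among treated replicate 2 libraries, while absolute depth is unknown. The first 2-PCPA library stood apart: its median log2 change over 12804 genes was −0.43, and 28.5% of 393 olfactory receptor genes were above 0 there, against 2.80% to 6.62% in the other libraries of that table. Of the bone and mesenchymal markers, VIM (388 to 1119 FPKM), SPARC (154 to 330 FPKM) and COL1A1 (74.0 to 187 FPKM) were high in all 14 libraries, RUNX2 ranged from 0.629 to 5.27 FPKM, ALPL was at most 4.76 FPKM and COL1A2 at most 0.0987 FPKM. Of the markers of other cell types, PTPRC, PECAM1 and ALB were at most 0.268, 0.113 and 0.224 FPKM, CDH1 at most 0.649 and EPCAM at most 2.51. The neuron marker SNAP25 ranged from 1.82 to 5.76 FPKM, which overlaps the range of RUNX2.

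KDM1A was the most abundant of the 9 transcripts, with a median of 44.0 FPKM over the 10 libraries of the replicate 1 table, followed by KDM5C at 19.6 FPKM. In each of the 14 libraries KDM1A was above KDM5C, KDM5C above RCOR1, and KDM5B above RCOR2, the lowest at a median of 0.757 FPKM. RCOR1 (7.83), PHF21A (7.62), KDM5A (7.32), RCOR3 (6.91), KDM1B (6.26) and KDM5B (5.90 FPKM) came between, and the neighbours in that order changed places among libraries, with RCOR1 above PHF21A in 8 of 14 and PHF21A above KDM5A in 5 of 14. KDM5A varied least over the 10 libraries, from 6.22 to 9.80 FPKM, and only 1.09% of all genes had a smaller standard deviation of log2(FPKM + 1). KDM5B varied most on that scale, from 3.41 to 18.2 FPKM, with 81.3% of genes below it.

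**Figure D1:**
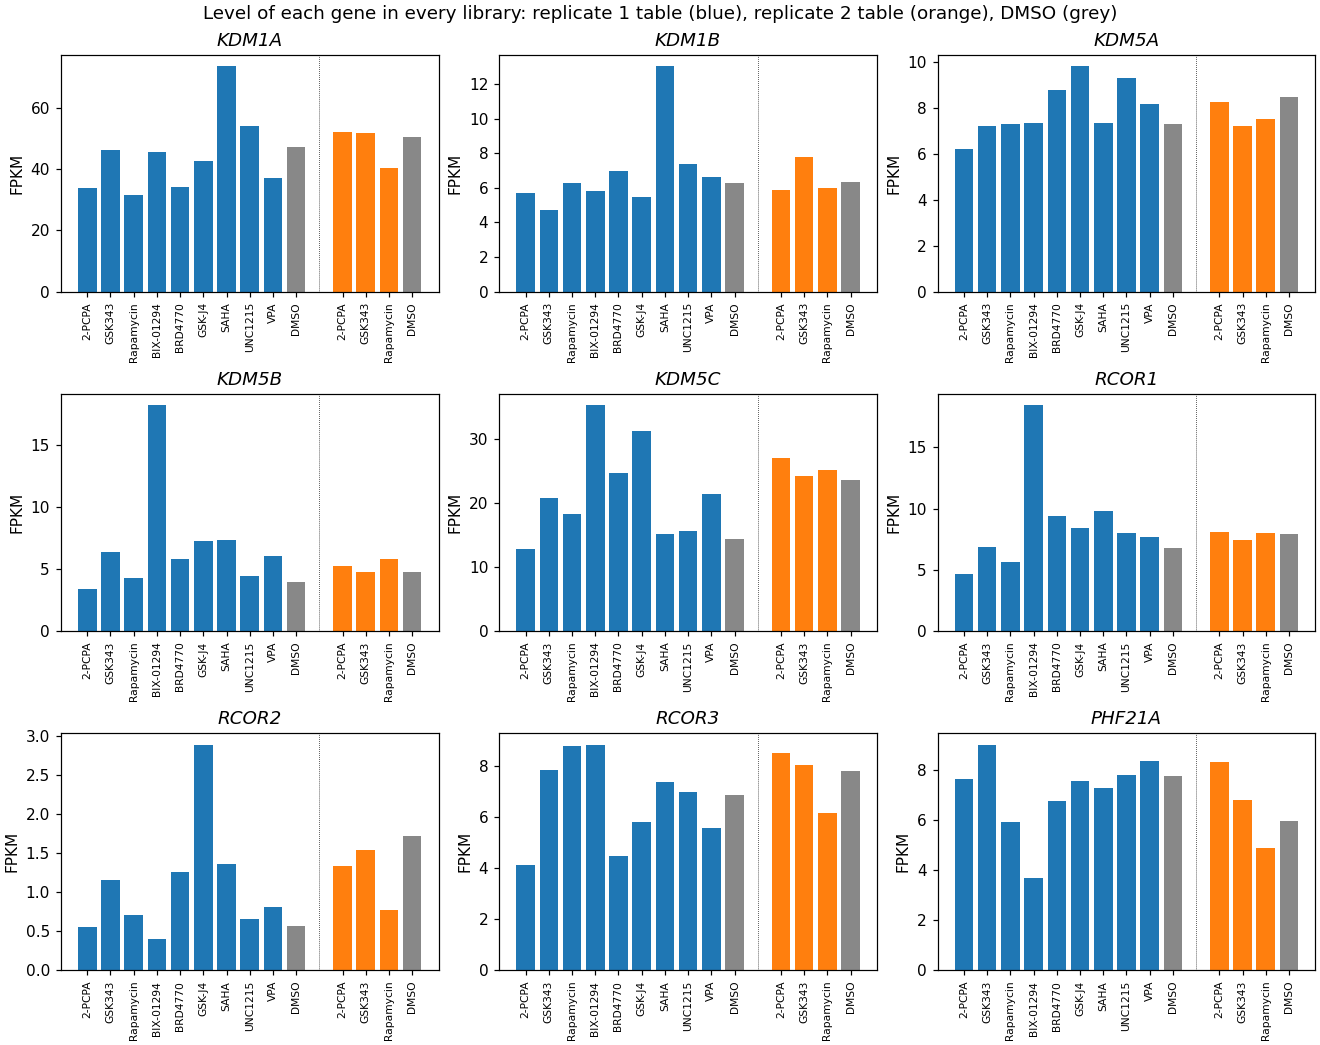
Level of each of the 9 genes in FPKM (vertical axis, from 0) in every library, with the replicate 1 table left of the dotted line (blue) and the replicate 2 table right of it (orange), and DMSO in grey at the right end of each table. KDM5B, KDM5C and RCOR1 are highest in the BIX-01294 library, KDM1A and KDM1B in the SAHA library, and RCOR2 in the GSK-J4 library.

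The amine oxidases did not pass the test in any replicated comparison. KDM1A, an enzyme that 2-PCPA inactivates, had 33.8 and 52.1 FPKM with 2-PCPA, 46.3 and 51.8 with GSK343 and 31.5 and 40.5 with rapamycin, against 47.2 and 50.4 with DMSO (replicates 1 and 2). With 2-PCPA it was below DMSO in the first table and slightly above in the second. Its 2-PCPA change on the log2(FPKM + 1) scale had a 95% interval of −0.73 to 0.31. The change was −0.01 relative to the median of all genes tested, which was −0.20 in this comparison. The rapamycin library had the lowest KDM1A of each table, and 7.09% of all genes were lowest in the rapamycin library of the replicate 1 table. The KDM1A changes against DMSO were −0.57 and −0.31 in the 2 replicates, and 37.1% of all tested genes were below DMSO in both. Its rapamycin estimate of −0.44 ± 0.23 (SE) had an interval of −0.96 to 0.08 and an adjusted p of 0.757 (limma with Benjamini-Hochberg adjustment).

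KDM1B, which acts in the bodies of transcribed genes, had 5.70 and 5.89 FPKM with 2-PCPA, 4.72 and 7.79 with GSK343 and 6.26 and 5.96 with rapamycin, against 6.25 and 6.34 with DMSO. GSK343 was its lowest library in the first table and its highest in the second, so that the 2 replicates went opposite ways. Its 3 estimates lay between −0.10 and −0.04, each with an SE of 0.23.

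In the single libraries the amine oxidases were highest with SAHA. KDM1A was at 73.6 FPKM and KDM1B at 13.0 FPKM with SAHA, against 47.2 and 6.25 FPKM in DMSO replicate 1. The next highest library for both was UNC1215, at 54.2 FPKM for KDM1A and 7.37 FPKM for KDM1B. The SAHA change was 0.63 for KDM1A and 0.95 for KDM1B on the log2(FPKM + 1) scale, and 17.3% and 8.61% of all genes had a higher one. The ratio of the plain values for KDM1B was 2.08, so it was past 2-fold without the pseudocount and short of it with a pseudocount of 1. With VPA, the other deacetylase inhibitor, KDM1A was at 37.2 and KDM1B at 6.61 FPKM. The labels give 20 μM for VPA and 1 μM for SAHA. Whether either dose inhibited the deacetylases was not measured in these RNA data. These libraries have no replicate, so no difference among them was tested.

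The KDM5 enzymes gave 0 calls in the comparisons with 2 libraries. KDM5A had 6.22 and 8.22 FPKM with 2-PCPA, 7.21 and 7.21 with GSK343 and 7.30 and 7.49 with rapamycin, against 7.29 and 8.46 with DMSO. KDM5B had 3.41 and 5.25 FPKM with 2-PCPA, 6.35 and 4.72 with GSK343 and 4.22 and 5.77 with rapamycin, against 3.91 and 4.76 with DMSO. Of these 3 compounds, rapamycin alone had KDM5B above DMSO in both tables, where 25.5% of all tested genes were as well. KDM5C had 12.8 and 27.0 FPKM with 2-PCPA, 20.8 and 24.2 with GSK343 and 18.3 and 25.2 with rapamycin, against 14.3 and 23.5 with DMSO. It was above DMSO in both tables with GSK343 and with rapamycin, by 0.27 ± 0.25 and 0.21 ± 0.25 (SE), at adjusted p of 0.949 and 0.883 (limma).

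BIX-01294 gave the highest KDM5B and KDM5C of the table. KDM5B was at 18.2 FPKM with BIX-01294, against 3.91 FPKM in DMSO replicate 1 and 3.41 to 7.34 FPKM over the other 9 libraries. The difference was 1.97 on the log2(FPKM + 1) scale, and 1.90% of all genes had a higher one. KDM5C was at 35.2 FPKM with BIX-01294 and 31.2 with GSK-J4, against 14.3 FPKM in DMSO replicate 1, differences of 1.24 and 1.07. DMSO was the second lowest of the 10 libraries for both genes, so all 6 single-library compounds, which share that DMSO library, lay above it. Against the median of the other 9 libraries in place of DMSO, an added base chosen after the values were seen, the differences were 1.51 for KDM5B and 0.91 for KDM5C with BIX-01294, and 0.74 for KDM5C with GSK-J4. BRD4770, which inhibits the same enzyme class as BIX-01294 but at another dose and time, had KDM5B at 5.76 and KDM5C at 24.6 FPKM. KDM5A, by contrast, was at 7.31 FPKM with BIX-01294, against 7.29 FPKM in DMSO replicate 1, and its highest library was GSK-J4 at 9.80 FPKM.

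The CoREST scaffolds gave 0 calls likewise. RCOR1 had 4.65 and 8.09 FPKM with 2-PCPA, 6.88 and 7.43 with GSK343 and 5.62 and 8.03 with rapamycin, against 6.79 and 7.88 with DMSO. RCOR3, a paralog that can also bind KDM1A, had 4.13 and 8.50 FPKM with 2-PCPA, 7.83 and 8.02 with GSK343 and 8.77 and 6.16 with rapamycin, against 6.85 and 7.81 with DMSO. For both genes the low 2-PCPA value was in the library that stood apart, and the second 2-PCPA library was above its DMSO. RCOR2, at 0.549 and 1.34 FPKM with 2-PCPA, 1.15 and 1.54 with GSK343 and 0.702 and 0.764 with rapamycin, against 0.560 and 1.72 with DMSO, barely passed the filter, with a mean of 1.04 FPKM. Its replicates in the rapamycin comparison differed by 0.75 on the log2 scale, the widest gap of the 27 pairs of replicate changes, whose median gap was 0.26.

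In the BIX-01294 library RCOR1 was at 18.4 FPKM, against 6.79 FPKM in DMSO replicate 1 and at most 9.82 FPKM in the other libraries of the table, a difference of 1.32 (1.16 against the median of the other 9). RCOR2 was highest with GSK-J4, at 2.89 FPKM against 0.560 FPKM with DMSO, a plain ratio of 5.16 at a low level, and a log2(FPKM + 1) difference of 1.32. RCOR3 was lower with BRD4770, at 4.48 FPKM against 6.85 FPKM with DMSO, a difference of −0.52.

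PHF21A had 7.67 and 8.33 FPKM with 2-PCPA, 9.02 and 6.82 with GSK343 and 5.92 and 4.91 with rapamycin, against 7.75 and 5.98 with DMSO. Rapamycin was below DMSO in both tables, with an estimate of −0.29 ± 0.21 (SE) and an adjusted p of 0.802 (limma). Set directly against each other, 2-PCPA was above rapamycin in both tables, by 0.32 and 0.66, as were 15.3% of all tested genes. The 2 compounds differ in dose and time. The estimate was 0.49 ± 0.21 (SE) with a 95% interval of 0.02 to 0.97, an unadjusted p of 0.0439 and an adjusted p of 0.424 (limma), and 11.8% of all tested genes had an unadjusted p under 0.05 in that comparison. The lowest PHF21A level was in the BIX-01294 library, at 3.67 FPKM against 7.75 FPKM with DMSO, a log2(FPKM + 1) difference of −0.91, and 7.62% of all genes had a lower one. BIX-01294 therefore had the highest library of the table for KDM5B, KDM5C, RCOR1 and RCOR3 and the lowest for RCOR2 and PHF21A. Of all genes, 26.5% were highest and 13.2% lowest in that library, which had the lowest relative depth of its table. Its part in these differences was not tested.

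Over the 9 genes, the count that passed the test (limma, adjusted p under 0.05) was 0 for 2-PCPA, GSK343 and rapamycin against DMSO, where 0.0238%, 0.0159% and 0.0159% of the 12603 genes tested passed. At an unadjusted p under 0.05 the counts were also 0 of 9, against 7.48%, 4.22% and 6.46% of all genes. The counts were again 0 for 2-PCPA against rapamycin (0.0476% of all genes) and against GSK343 (0.0317%), and PHF21A was the single member test of 45 with an unadjusted p under 0.05. The 27 intervals against DMSO ran from −0.97 to 0.90 and none reached 1 in either direction, so a 2-fold change on the log2(FPKM + 1) scale lay outside each of them. The pseudocount shrinks changes at low levels. RCOR2 had plain ratios of 2.06 in GSK343 replicate 1 and 0.444 in rapamycin replicate 2, at 0.46 and −0.63 on this scale. A 2-fold change of the plain values was therefore not excluded for every gene. In 16 of the 27 pairs the replicates had opposite signs. The members below DMSO in both replicates were 3 of 9 with 2-PCPA, 1 with GSK343 and 2 with rapamycin, where 42.2%, 26.7% and 37.1% of all genes were, and those above it in both were 0, 3 and 2 of 9, where 11.5%, 34.6% and 25.5% were. With 2-PCPA against rapamycin 2 of 9 were lower and 2 higher in both (37.0% and 15.3% of all genes), and against GSK343 1 was lower and 0 higher (44.4% and 10.5%), while 11.6% of all genes had an unadjusted p under 0.05 there. All 9 genes were below DMSO in the first 2-PCPA library, as were 10565 of 12804 genes, and 6 of 9 were above DMSO in the second. That first library was the lowest of its table for 5 of the 9 genes and for 36.9% of all genes.

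**Figure D2:**
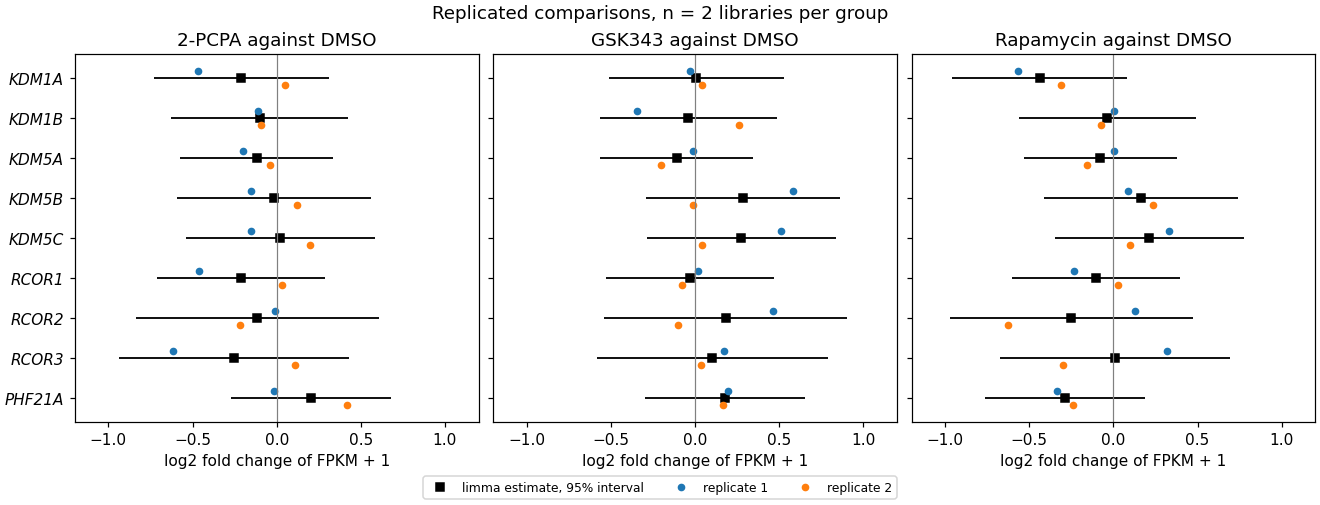
Change of each gene against DMSO on the log2(FPKM + 1) scale (horizontal axis) for the 3 compounds with 2 libraries, with the limma estimate and its 95% interval in black, replicate 1 in blue and replicate 2 in orange. All 27 intervals include 0, and the 2 replicates lie on opposite sides of 0 in 16 of the 27.

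With 1 library per compound, 3 of the 9 genes were at least 2-fold above DMSO with BIX-01294 (KDM5B, KDM5C and RCOR1), where 9.97% of all 12804 genes were. With GSK-J4 there were 2 (KDM5C and RCOR2), where 8.92% of all genes were. RCOR2 passed the filter of 1 FPKM in this table only through the GSK-J4 library, with a mean of 1.03 FPKM over the 10 libraries and 0.826 FPKM without it, so its part of this count is a description of the library that let it pass. The GSK-J4 count was 1 with a filter at 5 FPKM, with median centring or against the median of the other 9 libraries, and 0 with a pseudocount of 5. The BIX-01294 count, taken in either direction, was 4 with a pseudocount of 0.1 or with median centring. The gene added there was PHF21A, which was lower than DMSO. The count was 2 with a pseudocount of 5 or against the median of the other 9 libraries. With SAHA, BRD4770, UNC1215 and VPA there were 0, where 7.79%, 5.94%, 1.8% and 2.81% of all genes were. On the log2(FPKM + 1) scale without centring, the count at least 2-fold lower was 0 for each of the 6 compounds. Of all genes, 6.04% (BIX-01294), 4.84% (BRD4770), 5.96% (GSK-J4), 3.83% (SAHA), 1.26% (UNC1215) and 1.59% (VPA) were. PHF21A with BIX-01294 had a plain ratio of 0.473, past 2-fold lower without the pseudocount. With UNC1215 all 9 lay above DMSO, by 0.01 to 0.31, as did 56.0% of all genes, and with SAHA 8 of 9 did, as did 53.9%. The count above DMSO was 5 of 9 with BIX-01294 (53.8% of all genes), 6 with BRD4770 (48.3%), 5 with GSK-J4 (50.2%) and 7 with VPA (50.7%). The SAHA library was the highest of its table for 2 of the 9 genes, KDM1A and KDM1B, and for 18.4% of all genes, and the GSK-J4 library for 2, KDM5A and RCOR2, and for 14.9%. RCOR2 enters this count too through the GSK-J4 library that let it pass the filter, so its part is again a description.

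**Figure D3:**
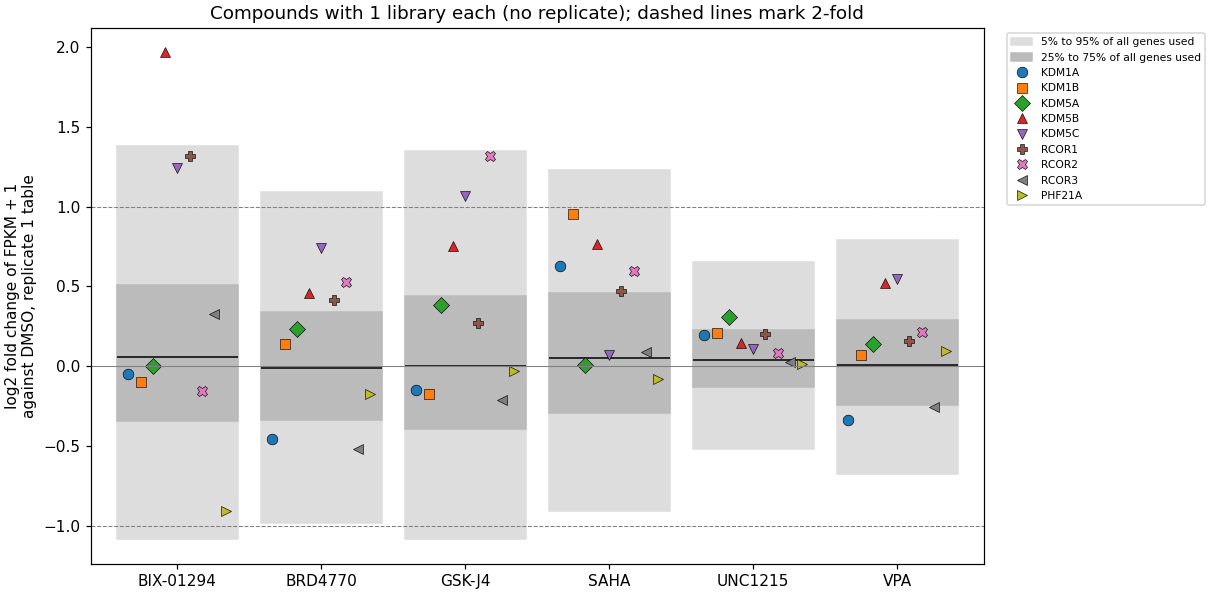
Change of each of the 9 genes against DMSO replicate 1 on the log2(FPKM + 1) scale (vertical axis) for the 6 compounds with 1 library, over grey bands for the middle 50% and 90% of all genes used and a black line at their median. The highest point is KDM5B with BIX-01294 at 1.97, above the upper edge of the outer band at 1.38.

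The genes around this machinery were described in 4 lists, the H3K4 methyltransferases and their shared subunits (13 genes), CoREST associates and recruiters (15), subunits of the NuRD deacetylase complex (11), and the other flavin amine oxidases with GLYR1, the partner of KDM1B (6). Of the 45 genes 42 could be tested, and 0 were called in any of the 5 replicated comparisons by limma, with 2, 0 and 0 at an unadjusted p under 0.05 for 2-PCPA, GSK343 and rapamycin against DMSO (7.48%, 4.22% and 6.46% of all genes), 1 for 2-PCPA against rapamycin (11.8%) and 3 for 2-PCPA against GSK343 (11.6%). With 2-PCPA the median changes of the 4 lists were −0.25, −0.24, −0.36 and −0.15, against −0.20 for all genes tested. SNAI1, a repressor that brings KDM1A to its target genes, was above DMSO in both 2-PCPA libraries, by 0.53 and 0.66 (0.60 ± 0.21 SE, adjusted p of 0.592 by limma, not called), while the lowest estimates with the same sign in both tables were those of ZMYM3, a zinc finger protein of the CoREST complex (−0.57, from −1.06 and −0.07 in replicates 1 and 2), ASH2L, a core subunit of the H3K4 methyltransferases (−0.56, from −0.93 and −0.19), and CHD3, a NuRD remodeller (−0.54, from −0.99 and −0.09). In all 3 the larger part came from the first 2-PCPA library, which stood apart.

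For GSK343 the median changes of the 4 lists lay between −0.01 and 0.09, against 0.03 for all genes tested. The same-sign genes with the largest estimates were HMG20B (0.36), MTA1 (0.33) and IL4I1 (0.30) above DMSO and MTA3 (−0.38), ZMYM2 (−0.28) and RBBP7 (−0.21) below it, all with an adjusted p of at least 0.949. For rapamycin the medians were −0.17, −0.09, −0.24 and −0.04, against −0.05 for all genes. ZMYM3 (−0.46), MBD2 (−0.43) and GATAD2A (−0.43) were below DMSO in both tables and MTA1 (0.26), REST (0.24) and GFI1 (0.16) above it, none called. Between 2-PCPA and rapamycin SNAI1 differed by 0.78 ± 0.21 (SE, adjusted p of 0.361) and GSE1 by 0.42, while the lowest estimates were those of MTA1 (−0.57, from −0.96 and −0.19), ASH2L (−0.54, from −0.99 and −0.09) and HMG20B (−0.53, from −0.97 and −0.08). Between 2-PCPA and GSK343 SNAI1 differed by 0.51 and REST by 0.06, while the lowest estimates were those of HMG20B (−0.77, from −1.38 and −0.15), MTA1 (−0.63, from −1.26 and −0.01) and MBD3 (−0.56, from −1.12 and −0.0087). In both comparisons these low values lay mostly in replicate 1, which holds the 2-PCPA library that stood apart.

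In the single libraries several of the 43 list genes stood further from DMSO than the 9 members did, a comparison of unlike numbers of genes. SNAI1 was at 31.3 FPKM and SNAI2, its paralog, at 38.1 FPKM with BIX-01294, against 3.63 and 4.69 FPKM with DMSO, and ZMYM3 was at 4.48 FPKM, against 16.4 FPKM, with ASH2L at 18.5 against 26.8 FPKM. Of 43 list genes, 4 were at least 2-fold above DMSO there (SNAI1, SNAI2, REST and KMT2C) and 1 below (ZMYM3), beside the 9.97% and 6.04% of all genes given above. The counts above and below were 4 and 0 with GSK-J4 (8.92% and 5.96% of all genes) and 4 and 1 with SAHA (7.79% and 3.83%). They were 2 and 0 with BRD4770 (5.94% and 4.84%), 1 and 0 with VPA (2.81% and 1.59%) and 0 and 0 with UNC1215 (1.8% and 1.26%). With SAHA, SNAI1 was at 11.5 FPKM and MAOB, an amine oxidase of mitochondria, at 4.95 FPKM, against 3.63 and 1.01 FPKM with DMSO, and CHD3 was at 16.6 FPKM, against 50.5 FPKM, with ZMYM3 at 9.53 against 16.4 FPKM. With GSK-J4, SMOX, which oxidises spermine, was at 47.1 FPKM and MAOB at 6.31 FPKM, against 6.92 and 1.01 FPKM with DMSO, while ZMYM3 (9.33 against 16.4 FPKM) and HDAC2 (15.3 against 26.1 FPKM) were lower. MAOB was at most 1.47 FPKM in the other libraries of the replicate 1 table. It passed the filter of 1 FPKM there only through the GSK-J4 and SAHA libraries.

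With BRD4770, IL4I1 was at 6.44 FPKM and SMOX at 16.0 FPKM, against 0.610 and 6.92 FPKM with DMSO, and ZMYM3 (8.04 against 16.4 FPKM) and CHD3 (30.1 against 50.5 FPKM) were lower. DMSO replicate 1 was the highest of the 10 libraries for ZMYM3. Against the median of the other 9 libraries its differences were −1.17 with BIX-01294, −0.44 with BRD4770, −0.25 with GSK-J4 and −0.22 with SAHA, in place of −1.67, −0.94, −0.75 and −0.72 against DMSO. With VPA, IL4I1 (2.46 against 0.610 FPKM) and HMG20B (88.2 against 57.7 FPKM) were higher and SNAI2 (2.41 against 4.69 FPKM) and MAOB (0.436 against 1.01 FPKM) lower. With UNC1215, MTA1 (34.2 against 23.3 FPKM) and MBD2 (12.0 against 8.37 FPKM) were higher and GFI1 (0.626 against 1.56 FPKM) and ZMYM2 (6.39 against 8.39 FPKM) lower. IL4I1 was at 0.610 FPKM in DMSO replicate 1 and 48.4 FPKM in DMSO replicate 2, so its level differed between the tables, and its GSK343 estimate of 0.30 joins within-table differences of 0.44 and 0.16 made at these unlike levels.

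**Figure D4:**
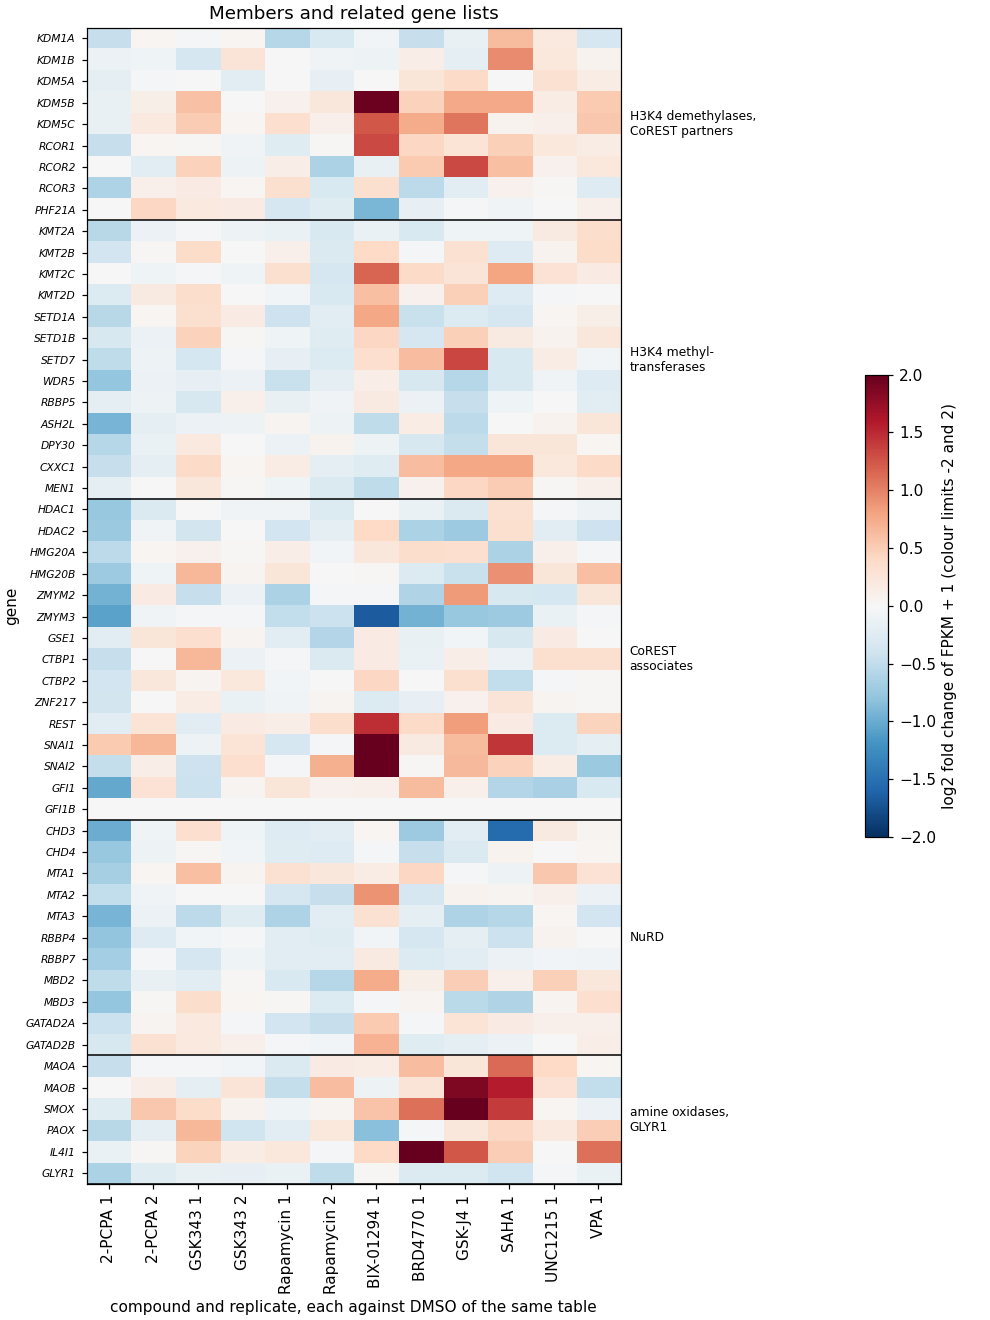
Change on the log2(FPKM + 1) scale (colour, limited at −2 and 2, red above and blue below DMSO of the same table) of the 9 genes and the 4 related lists (rows) in each treated library (columns). Past the upper colour limit are SNAI1 (2.80) and SNAI2 (2.78) with BIX-01294, SMOX (2.60) with GSK-J4 and IL4I1 (2.21) with BRD4770, with KDM5B at 1.97 with BIX-01294 just under it, and the first 2-PCPA column is blue in most rows.

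Likeness across libraries was measured as Pearson's r of log2(FPKM + 1) minus the mean of the library's own table, over all 14 libraries and, as a description without p, among the 8171 genes that averaged 5 FPKM or more in each table. The libraries share 1 DMSO control per table and differ in depth. The genes nearest to KDM1A were PC (0.951), OAZ1 (0.944) and ERGIC1 (0.938), all highest in the SAHA library among SAHA, BIX-01294, GSK-J4 and DMSO. Nearest to KDM5B were NOP14 (0.975), DAGLB (0.958) and MEF2D (0.950), and nearest to RCOR1 were TXNL1 (0.972), PPP3R1 (0.956) and UTP3 (0.952). Without the BIX-01294 library these fell to 0.920, 0.874 and 0.859 for KDM5B and to 0.923, 0.879 and 0.876 for RCOR1, while PC kept 0.957 with KDM1A. Among the members, KDM5B and RCOR1 were most alike at 0.925, or 0.785 over the 13 libraries without BIX-01294. KDM1A and KDM1B were at 0.623 with it and 0.642 without it. Both stood furthest from the mean of their table in the SAHA library (0.75 and 0.89), which was not left out. Leaving out BIX-01294 therefore cannot show how far this value, or those of PC, OAZ1 and ERGIC1 with KDM1A, rests on SAHA. KDM5B and PHF21A were at −0.635 with BIX-01294 and 0.023 without it, so that the negative value rests on 1 library.

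**Figure D5:**
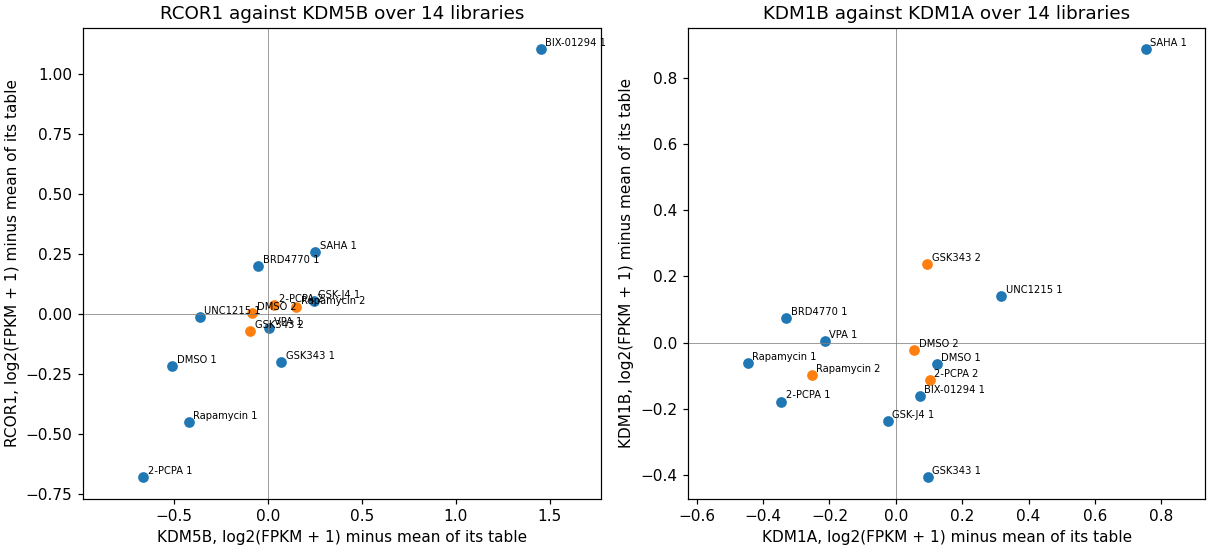
RCOR1 against KDM5B (left) and KDM1B against KDM1A (right), each as log2(FPKM + 1) minus the mean of its table, in 14 libraries (blue, replicate 1 table; orange, replicate 2 table). The BIX-01294 library lies far from the others in the left panel and the SAHA library in the right one.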

How the data were processed

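Gene-level FPKM values of 14 poly(A) RNA-seq libraries of U2OS cells were used as deposited by the authors in 2 tables (28502 and 25209 rows). A Rubicon ThruPLEX kit was used for the libraries, per the labels' protocols, and FastQC, cutadapt, TopHat2 and hg19 are named in the submitters' processing notes. The FPKM program, annotation and strand setting were not given in the sources used here. Files with FPKM give no counts, so no count test or interval from depth was used. The 1 row named unknown was dropped.

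From these values log2(FPKM + 1) was computed. The 4 groups with 2 libraries were fitted together in limma 3.58.1 (R 4.3.3) with the replicate number as a block, on the 12603 genes that averaged 1 FPKM or more over these 8 libraries, with a trended empirical Bayes prior (5.42 prior and 3 residual degrees of freedom). Adjusted p-values are Benjamini-Hochberg values, called under 0.05. The replicate number is the table, and tables are compared only within themselves. Deviations of replicate 1 libraries from the means of their groups correlated at 0.711 to 0.784 over 6 pairs of groups. This measure cannot tell an offset between the 2 tables from libraries that vary together. Single libraries were compared with DMSO replicate 1 over 12804 genes, with 2-fold as the limit and no test. The median SE was 0.25 and a 95% interval typically reached 0.57 (median) to each side. The fit was also run on simulated data with independent noise and changes of 1, 2 or 3 (log2) put into 2-PCPA. All member estimates were smaller than these, and no library that stands apart was simulated. That run therefore does not vouch for the member results. Tables were handled in Python 3.11.15 with pandas 2.3.3, numpy 2.4.6 and matplotlib 3.10.9.

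The members and lists were chosen with earlier results of these data known. Named were all 9 members, for the lists every called gene and, per direction and by size, up to 3 genes with the same sign in both replicates (2 for a single library), and the 3 genes most like KDM1A, KDM5B and RCOR1. REST and KMT2C were named with BIX-01294 after their values were seen. Alternatives were other pseudocounts (0.1 and 5), filters, centrings, priors, fits without the block or with only the compared groups, each library left out, and, added after seeing the data, the median of the other 9 libraries in place of DMSO.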

Additional observations from a re-analysis of the deposited data

How the results depend on the processing

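No member passed the test in any of the 5 replicated comparisons under any of the 19 alternatives run for each, and the smallest adjusted p of a member among them was 0.0840 (2-PCPA against GSK343 without 2-PCPA replicate 2, limma). The filter at 5 FPKM left out KDM5B and RCOR2, with means of 4.80 and 1.04 FPKM, so these were not tested under it. With 2 libraries a group, the median interval is 0.57 wide on each side, which limits what could be detected. Under median centring the sign turned, on the log2 scale, to KDM1B 0.10, KDM5A 0.083, KDM5B 0.18, RCOR2 0.086 for 2-PCPA against DMSO, and KDM1A −0.040 for GSK343 against DMSO, and KDM1B 0.013 for Rapamycin against DMSO, and KDM1B 0.086, KDM5A 0.11, RCOR1 0.042 for 2-PCPA against Rapamycin, and KDM1A 0.030, KDM1B 0.19, KDM5A 0.24, RCOR1 0.061 for 2-PCPA against GSK343. Under quantile normalization within each table the sign turned, on the log2 scale, to KDM1A 0.089, KDM1B 0.076, KDM5A 0.073, KDM5B 0.13 for 2-PCPA against DMSO, and KDM1A −0.017 for GSK343 against DMSO, and KDM1B 0.085, KDM5A 0.11, RCOR1 0.033 for 2-PCPA against Rapamycin, and KDM1A 0.11, KDM1B 0.17, KDM5A 0.22, KDM5C 0.022, RCOR1 0.037 for 2-PCPA against GSK343. Median centring gives all libraries a common median. Before it, the median change of all genes tested was −0.20, 0.03 and −0.05 for 2-PCPA, GSK343 and rapamycin against DMSO. It was −0.14 for 2-PCPA against rapamycin and −0.23 for 2-PCPA against GSK343. None of the turned values was called. Why the library medians differ was not tested, nor was the cause of the signs turned by quantile normalization.

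Among all genes, the calls for 2-PCPA, GSK343 and rapamycin against DMSO, 2-PCPA against rapamycin and 2-PCPA against GSK343 were 3, 2, 2, 6 and 4. Without the replicate block that pairs libraries by table, they were 1, 0, 0, 1 and 1. With robust priors they were 16, 18, 26, 84 and 8, and without small RNA and clone rows 52, 50, 73, 246 and 45. With no filter they were 1, 0, 0, 2 and 1. A pseudocount of 0.1 gave 0, 0 and 0 against DMSO and 1 for 2-PCPA against GSK343, and a pseudocount of 5 gave 1, 1 and 0 against DMSO. A filter at 5 FPKM gave 1 for GSK343 and 4 for rapamycin against DMSO, and 32 and 2 for the 2 comparisons between compounds. Median centring gave 0 for GSK343, 5 for rapamycin and 22 for 2-PCPA against rapamycin. Quantile normalization gave 0 and 0 for GSK343 and rapamycin, and 14 and 2 between compounds. Without the trend rapamycin gave 1. With only the 2 groups compared they were 272, 0 and 0 against DMSO and 389 for 2-PCPA against rapamycin. Leaving out each library in turn gave 2 to 47, 0 to 44, 0 to 42, 1 to 49 and 1 to 1844. The highest of these were without 2-PCPA replicate 1 (47), DMSO replicate 1 (44 and 42), 2-PCPA replicate 1 (49) and 2-PCPA replicate 2 (1844). The causes were not tested.

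Leaving out each library also turned the sign of uncalled member values. For 2-PCPA against DMSO these ranges were −0.26 to 0.021 (KDM5A), −0.23 to 0.19 (KDM5B), −0.27 to 0.31 (KDM5C), −0.44 to 0.0061 (RCOR1), −0.37 to 0.14 (RCOR2), −0.74 to 0.23 (RCOR3), −0.0032 to 0.41 (PHF21A). For GSK343 against DMSO these ranges were −0.13 to 0.15 (KDM1A), −0.35 to 0.27 (KDM1B), −0.080 to 0.65 (KDM5B), −0.20 to 0.14 (RCOR1), −0.072 to 0.44 (RCOR2). For Rapamycin against DMSO these ranges were −0.18 to 0.11 (KDM1B), −0.22 to 0.0050 (RCOR1), −0.50 to 0.0041 (RCOR2), −0.40 to 0.41 (RCOR3). For 2-PCPA against Rapamycin these ranges were −0.21 to 0.078 (KDM1B), −0.18 to 0.10 (KDM5A), −0.39 to 0.032 (KDM5B), −0.48 to 0.10 (KDM5C), −0.33 to 0.11 (RCOR1), −0.11 to 0.38 (RCOR2), −0.75 to 0.23 (RCOR3). For 2-PCPA against GSK343 these ranges were −0.37 to 0.25 (KDM1B), −0.15 to 0.13 (KDM5A), −0.67 to 0.062 (KDM5B), −0.55 to 0.038 (KDM5C), −0.41 to 0.035 (RCOR1), −0.84 to 0.13 (RCOR3), −0.18 to 0.23 (PHF21A).

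Genes past 2-fold were 2049 (BIX-01294), 1381 (BRD4770), 1905 (GSK-J4), 1488 (SAHA), 391 (UNC1215) and 563 (VPA). A pseudocount of 5 gave 771, 476, 801, 527, 103 and 133, and a filter at 5 FPKM 1229, 745, 1154, 792, 137 and 238. A pseudocount of 0.1 gave 2111 for BRD4770, 830 for UNC1215 and 1088 for VPA, and the other base 277 for VPA. Members past 2-fold were 1 for BRD4770 and 2 for SAHA with a pseudocount of 0.1. For GSK-J4 they were 0 with a pseudocount of 5, and 1 each with the filter at 5 FPKM, median centring and the other base.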
